A study of Mus musculus with 31 samples.

Results

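The genes described here code for the subunits of respiratory chain complexes I to V, the machinery of oxidative phosphorylation, in the brain of newborn mice after magnesium sulfate (MgSO4), after hypoxia-ischemia (HI), or after both. Members were chosen by symbol alone: every symbol beginning with Nduf (complex I, with the Ndufaf assembly factors left out), the complex II genes Sdha, Sdhb, Sdhc and Sdhd, every symbol beginning with Uqcr together with Cyc1 (complex III), symbols beginning with Cox4, Cox5, Cox6, Cox7 or Cox8 together with Ndufa4 and Ndufa4l2 (complex IV), and every symbol beginning with Atp5 (complex V). The rule itself uses no measured value, though the members were chosen with earlier results of these data known. The rule found 86 of the 19902 genes named on the array, measured by 115 probes, of which 36 belong to complex I, 4 to complex II, 9 to complex III, 20 to complex IV and 17 to complex V. In the reference annotation the rule matched 108 symbols, of which 3 protein-coding genes (Ndufb1, Ndufb4b and Ndufb4c) had no named probe on the array. The other unmatched symbols were 16 pseudogenes and 3 transcribed pseudogenes.

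Complex I and complex II pass electrons from NADH and from succinate to ubiquinone, complex III passes them on to cytochrome c, and complex IV hands them to oxygen. The proton gradient that complexes I, III and IV build drives complex V, the ATP synthase. All members are nuclear genes, since the subunits coded by mitochondrial DNA are not part of the rule, and in each complex some subunits carry the catalytic centres while others are accessory or structural. Neurons depend on this chain for most of their ATP, and it stops when oxygen is missing.

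Each of 31 arrays co-hybridised a Cy3-labelled and a Cy5-labelled pool of RNA from NMRI mice treated at postnatal day 5. For MgSO4 alone, pups that had received 600 mg/kg (Cy5) were set against pups without MgSO4 (Cy3) and collected after 3, 6, 12 or 24 h, on 4 arrays each and 7 at 6 h. For HI alone, pups with the right carotid ligated and then kept in 8% oxygen for 40 min (Cy5) were set against control pups (Cy3), 3 h (3 arrays) and 12 h (3 arrays) after the end of hypoxia. On the RV Mg arrays, named after their titles, MgSO4 at the same dose was given 1 h before HI, with 3 arrays at 3 h and 3 at 12 h. Per the study's methods each pool joined RNA from 6 hemispheres on the ligated side, so an array averages over animals, and the labels count each array as a biological replicate.

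The labels and the methods differ on several points that bear on these values. The labels describe subcutaneous injection and PBS-injected controls, while the methods describe intraperitoneal injection and, for HI, untreated controls. The Cy5 treatment label of the HI arrays names MgSO4, against their titles, source names and the methods, and these arrays were taken as HI without MgSO4. For the RV Mg arrays the sources do not settle which channel held which sample: the titles and the Cy3 source name set MgSO4-treated HI against MgSO4-treated pups without HI, while the methods set it against HI without MgSO4 and the study's text differs on the dye. Values of those arrays are therefore given as Cy5 over Cy3 and not as an effect of MgSO4 or of HI. Dyes were never swapped, so a dye bias of a probe is part of each ratio.

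Values are log2 ratios of Cy5 over Cy3, so that a negative value means less signal in Cy5, and each time point was tested against 0 with limma, adjusted over all probes tested. Of the 86 members, 82 were well above background in both channels on every array, and Cox8c, a testis isoform, was above it in neither channel on any. Cox8c was not tested anywhere and Cox8b was tested only on the RV Mg arrays at 12 h, which leaves 84 members tested in every other group. The correlation of log2 ratios between arrays of a group, over all probes, was 0.593 to 0.632 for HI at 3 h and 0.237 to 0.669 at 12 h, against -0.421 to 0.859 for MgSO4 at 6 h, where the replicates 3 and 7 of one slide ran against replicates 1, 2 and 6. The methods state the dyes, so the direction of those arrays was kept.

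At 3 h after HI, respiratory chain genes lay mainly below the control level, by small amounts. Of 84 members tested, 12 were lower at an adjusted p under 0.05 and 0 were higher, which is 14.3% lower against 8.65% of all 14572 genes tested (6.21% of all genes were higher). In either direction the test called 14.9% of all genes. At an unadjusted p under 0.05, limma found 25 members lower (29.8%, against 21.7% of all genes) and 2 higher (2.38%, against 15.4%). The median log2 ratio was -0.12 for the members and -0.027 for all genes, and the medians of the 3 arrays were -0.078, -0.15 and -0.13. On every one of the 3 arrays, 53 members (63.1%) lay below 0, against 33.8% of all genes, and 8 members (9.52%) lay above 0, against 25.1%. None of the 12 members reached a 1.5-fold change, while 3.83% of all genes passed the test with at least that change.

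**Figure D1:**
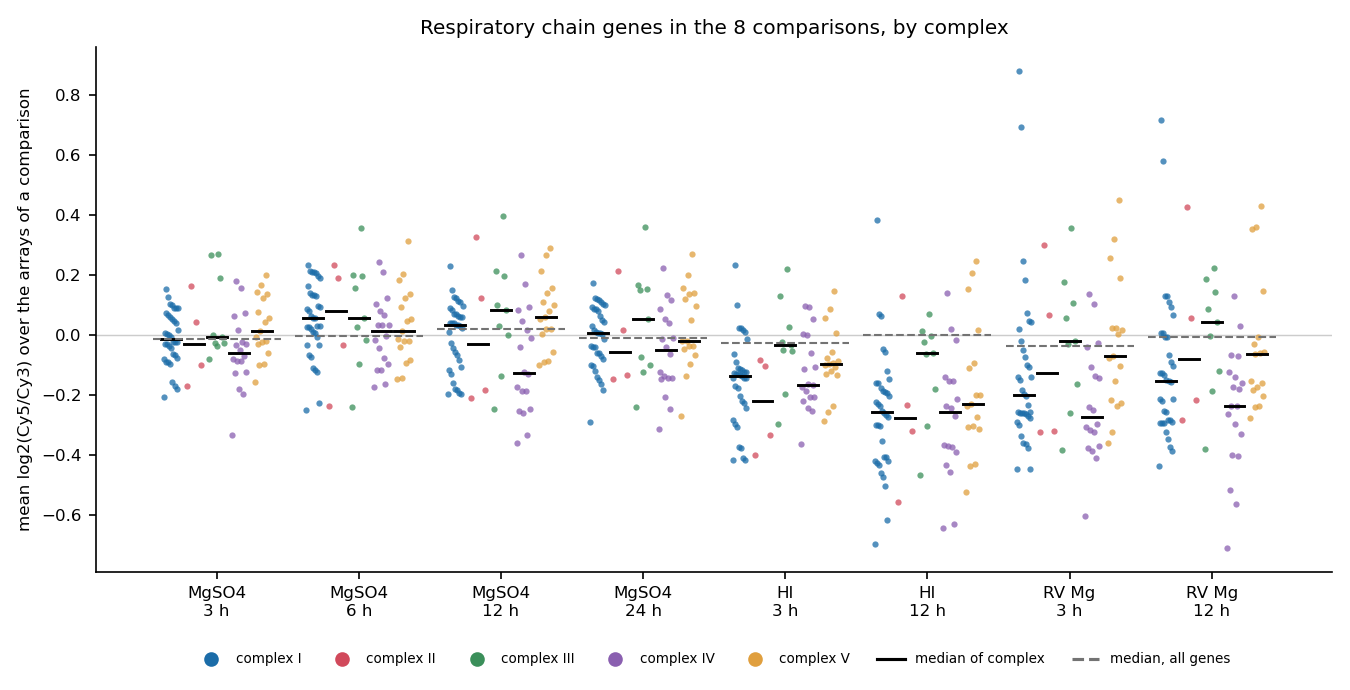
Mean log2 ratio of each tested member (points, 1 per gene) in the 8 comparisons, grouped by complex, with the median of each complex as a bar and the median of all genes as a dashed line. Most points of complexes I, IV and V lie below 0 in each HI and RV Mg group, and the complex III medians lie nearest 0 there, between -0.060 and 0.042.

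Of the 12 lower genes, 7 code for accessory subunits of complex I. Ndufb9, a subunit of its membrane arm, measured -0.39, -0.37 and -0.49 on the 3 arrays, a mean of -0.42 ± 0.063 (SD, n = 3, adjusted p = 0.0274). Ndufa13, also known as GRIM-19, measured -0.37, -0.50 and -0.38, a mean of -0.42 ± 0.070 (SD, n = 3, adjusted p = 0.0282). Ndufb4, another subunit of the membrane arm, measured -0.36, -0.43 and -0.43, a mean of -0.41 ± 0.046 (SD, n = 3, adjusted p = 0.0273). All HI arrays of this time lay below 0 within a narrow span for these genes. Ndufa13 also lay below 0 on 17 of the 19 arrays of MgSO4 alone. Set against the MgSO4 ratios at 3 h, which would share a dye bias of a probe, Ndufb9, Ndufa13 and Ndufb4 differed by -0.39, -0.26 and -0.41. None of these differences passed limma's adjusted test. Ndufab1, the mitochondrial acyl carrier protein, averaged -0.38 ± 0.11 (SD, n = 3, adjusted p = 0.0373), and Ndufb3, Ndufb11 and Ndufa1, all of the membrane arm, averaged -0.37, -0.31 and -0.28. The Ndufab1 probe was dim, with log2 Cy3 signals of 2.46 to 8.26 over the 31 arrays, above background on 30. A dimmer probe of Ndufb11 averaged 0.057, so its probes disagree.

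The other lower genes were spread over the remaining complexes. Both membrane anchors of complex II were among them: Sdhc measured -0.35, -0.47 and -0.38, a mean of -0.40 ± 0.065 (SD, n = 3, adjusted p = 0.0291), and Sdhd measured -0.27, -0.34 and -0.39, a mean of -0.33 ± 0.062 (SD, n = 3, adjusted p = 0.0368). Uqcr11, a small subunit of complex III, averaged -0.30 ± 0.025 (SD, n = 3, adjusted p = 0.0405). Cox7a1, the complex IV isoform of heart and skeletal muscle, averaged -0.36 ± 0.11 (SD, n = 3, adjusted p = 0.0384), and Atp5o, which joins the stator stalk of ATP synthase to its catalytic head, averaged -0.29 ± 0.030 (SD, n = 3, adjusted p = 0.0431). Each of the 12 genes lay below 0 on 3 of 3 arrays. When any 1 of the 3 arrays was left out, 0 members passed the adjusted threshold, so each call needed all 3 arrays. The split between lower and higher calls changed with the background correction and dye normalization, which were exchanged together: with normexp and loess on the median spot signals, 16 members were lower and 6 were higher (Ndufa10, Uqcrh, Atp5g2, Cox6a1, Ndufb8 and Atp5l, the last of which averaged -0.26 in the processed signals). The share of all genes was not counted in that setting.

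The highest members at 3 h did not pass the test. Ndufa10, an accessory subunit of complex I, measured 0.14, 0.23 and 0.33, a mean of 0.23 ± 0.099 (SD, n = 3, adjusted p = 0.0816). Uqcrh, the hinge protein of complex III, measured 0.36, 0.14 and 0.16, a mean of 0.22 ± 0.12 (SD, n = 3, adjusted p = 0.102), and Atp5d, the delta subunit of the catalytic head, averaged 0.15 ± 0.073 (SD, n = 3, adjusted p = 0.172). These genes were above 0 on all 3 arrays.

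At 12 h after HI the members lay further below 0 in the processed ratios, but the arrays also scattered more and 0 members passed the adjusted test. The step from 3 h depended on the scaling: with each array centred on its median, the member median at 12 h was no lower than at 3 h. The values that follow are not centred. The median was -0.24 over 84 members, against 0.00 to 2 decimals over all 14617 genes tested, and the medians of the 3 arrays were -0.28, -0.25 and -0.18. The adjusted test called 0 genes of all lower and 0.0137% higher. At an unadjusted p under 0.05, limma found 29 members lower (34.5%, against 13.9% of all genes) and 1 higher (1.19%, against 14.0%), and the methods' t-test found 34 members in either direction (18.5% of all genes). On every array, 57 members (67.9%) lay below 0, against 26.3% of all genes, and 4 (4.76%) lay above 0, against 24.8%. Without replicate 3, 10 members passed the adjusted threshold, and without either of the other arrays 0 did, with the share of all genes not counted. In a single fit of all 31 arrays, where every group shares an estimate of the spread, 31 members were lower at 12 h (36.9%, against 8.4% of all genes) and 6 at 3 h (7.14%, against 2.56%).

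Several of the lowest members at 12 h were those lower at 3 h. Ndufb4 measured -0.67, -0.86 and -0.56, a mean of -0.70 ± 0.15 (SD, n = 3, adjusted p = 0.0775). Ndufb9 measured -0.72, -0.72 and -0.41, a mean of -0.62 ± 0.18 (SD, n = 3, adjusted p = 0.0814), and Sdhc measured -0.68, -0.60 and -0.39, a mean of -0.56 ± 0.15 (SD, n = 3, adjusted p = 0.0876). Others had lain nearer 0 at 3 h. Ndufa4, a complex IV subunit once assigned to complex I, measured 0.087, -0.34 and -0.30 at 3 h and -0.72, -0.55 and -0.62 at 12 h, means of -0.19 ± 0.24 (SD, n = 3, adjusted p = 0.261) and -0.63 ± 0.086 (SD, n = 3, adjusted p = 0.0792). Cox6a2, the heart and muscle isoform of its subunit, averaged -0.64 ± 0.41 (SD, n = 3, adjusted p = 0.113), and Atp5l, a membrane subunit of ATP synthase, averaged -0.52 ± 0.11 (SD, n = 3, adjusted p = 0.0883). Both lay below 0 on all 3 arrays.

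Ndufa10 was again the highest member at 12 h, at 0.32, 0.52 and 0.31, a mean of 0.38 ± 0.12 (SD, n = 3, adjusted p = 0.129). It was followed by Atp5d, with a mean of 0.25 ± 0.071 (SD, n = 3, adjusted p = 0.233), and by Atp5g2, one of the genes for the c subunit of the rotor ring, with a mean of 0.15 ± 0.020 (SD, n = 3, adjusted p = 0.411), though a dimmer probe of Atp5g2 averaged -0.23. Over the HI arrays of both times, 47 members (56.0%) lay below 0 on all 6 arrays, against 15.7% of the 14328 genes tested at both times. Only Atp5d, Atp5g2 and Ndufa10 (3.57%, against 12.5% of all genes) lay above 0 on all 6.

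The change between 3 h and 12 h after HI was tested directly. In a fit of both times, 0 of 84 members differed at an adjusted p under 0.05 (0.0419% of all genes did), and 3 members (3.57%) did so at an unadjusted p under 0.05, against 17.4% of all genes. Ndufa4 had the lowest p of the members, with a difference of -0.44 ± 0.15 (standard error, adjusted p = 0.216). One slide held an array of each time, and on it the member median was -0.13 at 3 h and -0.28 at 12 h. The medians of all genes on these arrays were -0.014 and 0.033. With each array centred on its median, the member median did not fall between the times.

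**Figure D2:**
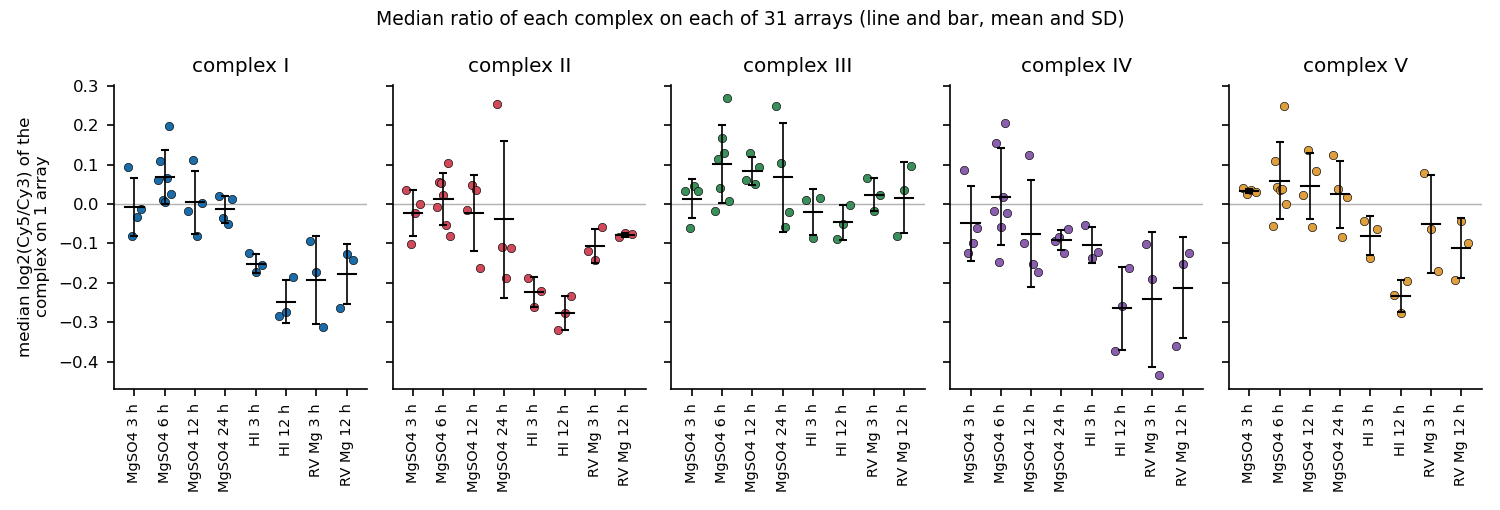
Median log2 ratio of each complex on each of the 31 arrays (points), in a panel per complex with the groups along the horizontal axis and the mean and SD over arrays as a line and bar. The medians of complexes I, II, IV and V lie below 0 on all 6 HI arrays and scatter on both sides of 0 on the 19 MgSO4 arrays.

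The complexes did not lie at one level. At 3 h the medians were -0.14 for complex I, -0.22 for complex II, -0.033 for complex III, -0.16 for complex IV and -0.096 for complex V. At 12 h they were -0.26, -0.28, -0.060, -0.26 and -0.23 in the same order. Complex III lay nearest 0 at both times, and its array medians were 0.011, -0.087 and 0.014 at 3 h and -0.088, -0.050 and -0.0018 at 12 h. Complex I array medians were -0.13, -0.17 and -0.16 at 3 h and -0.28, -0.27 and -0.18 at 12 h, and those of complex IV were -0.053, -0.14 and -0.12 and -0.37, -0.26 and -0.16. The arrays of complexes I and III did not overlap at either time. The difference between complexes was not tested, since genes of a complex are not replicates. Set against the MgSO4 ratios, which would share a dye bias of a probe, most complex III genes lay lower at 12 h after HI. Uqcrh, Uqcr10, Uqcrq, Uqcr11 and Uqcrfs1 differed by -0.46, -0.40, -0.38, -0.33 and -0.27. Uqcrb and Uqcrc2 differed by -0.089 and -0.015, and Uqcrc1 and Cyc1 by 0.070 and 0.22. The part of a dye bias in the level of complex III was not tested.

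Within complexes, subunits were sorted by their textbook roles after the values had been seen, so the following is a description. In complex II the anchors Sdhc and Sdhd had a median of -0.44 at 12 h after HI, while the catalytic subunits Sdha and Sdhb had -0.052. After MgSO4 alone the catalytic subunits had medians of 0.10, 0.21, 0.23 and 0.11 at 3, 6, 12 and 24 h. The anchors there had -0.13, -0.13, -0.20 and -0.14, so the anchors also lay lower without HI. Set against the MgSO4 ratios at 12 h, Sdha, Sdhb, Sdhc and Sdhd differed by -0.20, -0.36, -0.37 and -0.11 after HI. In complex V the 5 genes of the F1 catalytic core had a median of 0.0068 at 3 h and 0.016 at 12 h. At 12 h the means of these 5 ran from -0.43 for Atp5e to 0.25 for Atp5d. The 9 genes of neither the F1 core nor the c ring had medians of -0.12 and -0.30, and all 9 lay below 0 on every array at 12 h. Set against the MgSO4 ratios at 12 h, Atp5a1, Atp5b, Atp5c1, Atp5d and Atp5e differed by -0.27, 0.051, -0.17, 0.18 and -0.45. The 9 genes differed by between -0.45 (Atp5mpl) and -0.21 (Atp5o). In complex I the 7 core subunits had a median of -0.20 at 12 h, and the 29 accessory ones -0.27.

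On the RV Mg arrays the members spread in both directions. At 3 h, 3 of 84 members were lower in Cy5 than in Cy3 at an adjusted p under 0.05 (3.57%, against 2.69% of all 14738 genes) and 3 were higher (3.57%, against 6.26%). The member median was -0.15 against -0.036 for all genes, with array medians of -0.057, -0.15 and -0.31. In either direction 6 members passed (7.14%, against 8.95% of all genes), and 2 of them, Ndufa10 included, did so with at least a 1.5-fold change (2.38%, against 5.48%). At an unadjusted p under 0.05, 25 members were lower in Cy5 (29.8%, against 12.9%) and 7 higher (8.33%, against 13.6%). Below 0 on every array lay 43 members (51.2%, against 26.6% of all genes), and above 0 lay 14 (16.7%, against 22.6%). The number of calls depended on single arrays: it was 9 without replicate 1, 1 without replicate 2 and 2 without replicate 3. With normexp and loess on the median spot signals, 8 members were lower in Cy5 and 4 higher. For these settings the share of all genes was not counted.

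The genes higher in Cy5 at 3 h included Ndufa10 and Atp5g3. Ndufa10 measured 0.63, 0.68 and 0.77 on the 3 arrays, a mean of 0.69 ± 0.069 (SD, n = 3, adjusted p = 0.0148). Atp5g3, another gene for the c subunit of the rotor ring, measured 0.40, 0.39 and 0.57, a mean of 0.45 ± 0.10 (SD, n = 3, adjusted p = 0.0439). Both genes were brighter in Cy5 on every RV Mg array of this time, and Ndufa10 lay above all of its values on the HI arrays of the same time. On the 19 arrays of MgSO4 alone, Atp5g3 also lay above 0 on 17, with a mean of 0.19. Ndufa10 ran there from -0.32 to 0.84. Set against the MgSO4 ratios at 3 h with limma, Atp5g3 differed by 0.31 (adjusted p = 0.131) and Ndufa10 by 0.54 (adjusted p = 0.017).

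The genes lower in Cy5 at 3 h were Ndufb9, at -0.45 ± 0.12 (SD, n = 3, adjusted p = 0.0468), Ndufb11, at -0.45 ± 0.045 (SD, n = 3, adjusted p = 0.0398), and Cox5b, a complex IV subunit on the matrix side, at -0.41 ± 0.055 (SD, n = 3, adjusted p = 0.0498). Ndufb9 and Ndufb11 were also among the members lower after HI at 3 h, and the dimmer probe of Ndufb11 averaged 0.0041 here. The lowest member, Cox7a1, measured -0.20, -0.56 and -1.05, and its mean of -0.60 ± 0.43 (SD, n = 3, adjusted p = 0.0811) did not pass.

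At 12 h, 0 of 85 members tested passed on the RV Mg arrays, and 0 of all 14836 genes did. At an unadjusted p under 0.05, limma found 21 members lower in Cy5 (24.7%, against 10.4% of all genes) and 6 higher (7.06%, against 13.8%), and the methods' t-test found 29 in either direction (15.1% of all genes). The median was -0.15, with array medians of -0.22, -0.087 and -0.11, and 49 members (57.6%, against 24.6%) lay below 0 on every array while 15 (17.6%, against 26.3%) lay above it. Ndufa10 measured 0.66, 0.57 and 0.51, a mean of 0.58 ± 0.079 (SD, n = 3, adjusted p = 0.0827). Atp5g3 averaged 0.43 ± 0.10 (SD, n = 3, adjusted p = 0.0916). Lowest were Cox7a1, at -0.71 ± 0.38 (SD, n = 3, adjusted p = 0.0913), Cox6a2, at -0.52 ± 0.25 (SD, n = 3, adjusted p = 0.1), and Ndufb11, at -0.43 ± 0.15 (SD, n = 3, adjusted p = 0.0982). Cox8b, the muscle isoform tested in this group only, averaged -0.56 ± 0.65 (SD, n = 3, adjusted p = 0.224).

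Over the 6 RV Mg arrays of both times, 39 members lay below 0 throughout (46.4%, against 14.9% of the 14524 genes tested at both times) and 14 above 0 throughout (16.7%, against 15.6%). Those above 0 included Ndufs1, Ndufs7, Ndufs8 and Ndufa10 of complex I, Sdha of complex II, Cyc1, Uqcrc1 and Uqcrc2 of complex III, Cox5a of complex IV, and Atp5a1, Atp5b, Atp5d and Atp5g3 of complex V. Sorted by textbook role as above, the 7 core subunits of complex I had a median of 0.075 at 3 h and 0.094 at 12 h, and the 29 accessory ones -0.26 and -0.21. The catalytic subunits of complex II had medians of 0.18 and 0.24 and its anchors -0.32 and -0.25. After MgSO4 alone these medians also lay above 0 and below 0 at every time. Set against the MgSO4 ratios at 12 h, Sdha, Sdhb, Sdhc and Sdhd differed by 0.10, -0.067, -0.10 and -0.0045 on the RV Mg arrays. At 3 h they differed by 0.26, -0.095, -0.22 and -0.15. The F1 core of complex V had medians of 0.19 and 0.15. The 9 genes of neither the F1 core nor the c ring had -0.22 and -0.17. The 3 c-ring genes had medians of 0.024 and -0.0064. In complexes I, II and V the median of the core or catalytic subunits thus lay above 0 at both times, and that of the accessory subunits, the anchors and the 9 other complex V genes below 0.

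**Figure D3:**
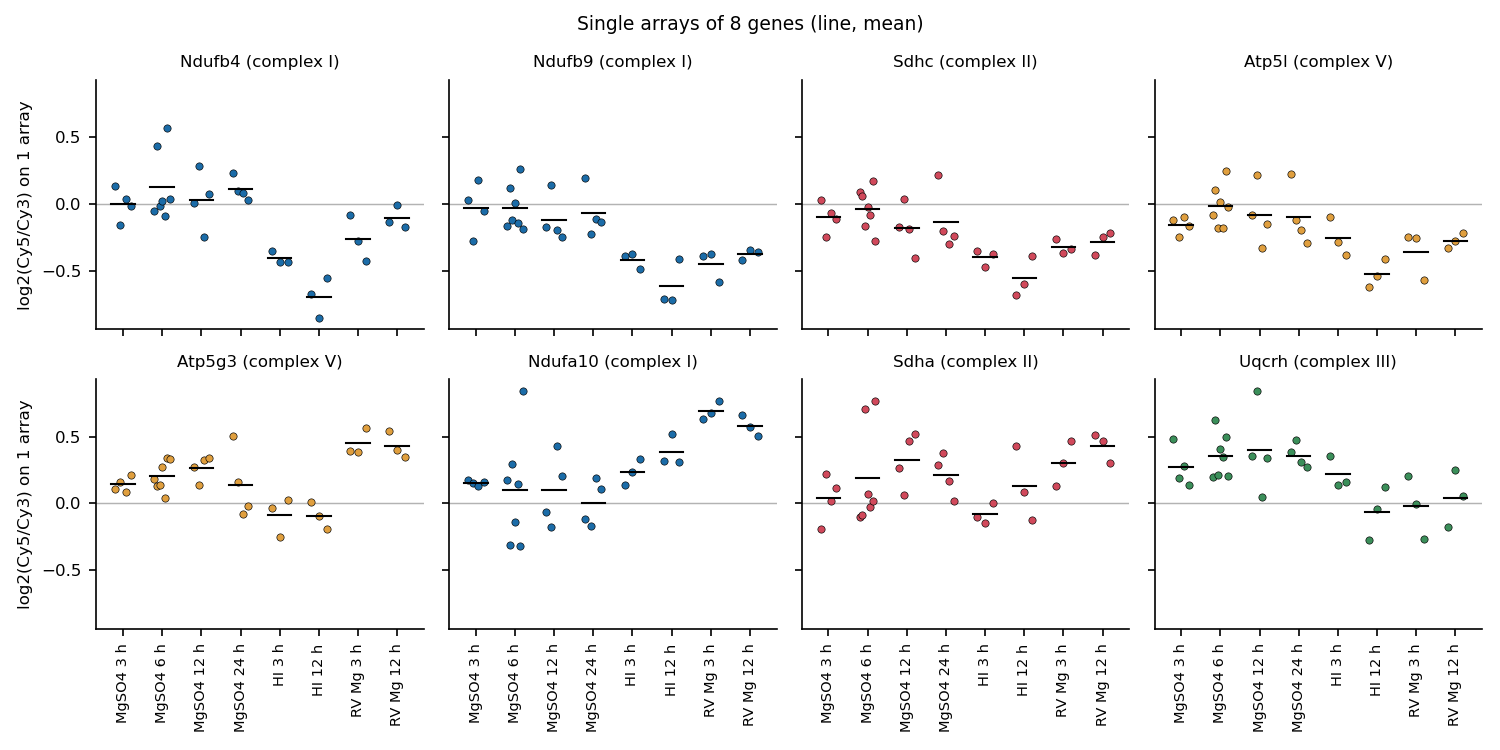
Log2 ratio of 8 members on each HI, RV Mg and MgSO4 array (1 point per array), with the mean of a group as a line. Ndufa10 stands between 0.51 and 0.77 on the 6 RV Mg arrays and between 0.14 and 0.52 on the 6 HI arrays, while Ndufb9 and Sdhc lie below 0 on every HI array. On the MgSO4 arrays Ndufa10 runs from -0.32 to 0.84.

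The Cy3 signals of the RV Mg arrays were also compared, as in the study's methods, with the Cy3 signals of the control pools of the same time. Each array was scaled to its 75th percentile. At 3 h, 0 of 84 members passed limma's adjusted test (0.424% of all genes did), with a member median of -0.040 against -0.047 for all genes. The 3 h value also depended on the controls. It was -0.17 against the controls of the HI arrays (-0.051 for all genes) and 0.025 against those of the MgSO4 arrays (-0.069 for all genes). The Cy3 controls of the HI arrays, set against those of the MgSO4 arrays at 3 h, had a member median of 0.20. At 12 h, 0 members passed (0.0347% of all genes did), and the member median was -0.60 against 0.016. That shift depended on the controls and the scaling. It was -0.40 against the controls of the HI arrays, which share slides with the RV Mg arrays, -0.74 against those of the MgSO4 arrays, where 56 members passed as lower and 1 as higher (23.1% and 24.1% of all genes did), and -0.093 after quantile normalization. The Cy3 controls of the HI arrays, set against those of the MgSO4 arrays at 12 h, themselves had a member median of -0.42, with 21 members called lower (16.5% of all genes were). The 12 h shift between Cy3 signals was thus of the size of the shift between the 2 sets of controls, and the part of the slides in it was not tested.

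After MgSO4 alone, 0 of 84 members passed the adjusted test at any of the 4 times. Of all genes 0% passed at 3 h, 0.0364% at 6 h (0.0146% lower and 0.0218% higher), 0% at 12 h and 0.00713% at 24 h. At 3 h, an unadjusted p under 0.05 in limma marked 1 member as lower (4.92% of all genes were) and 5 as higher (5.95%, against 4.29%). At 6 h it marked 3 as lower (3.57%, against 5.94%) and 11 as higher (13.1%, against 7.49%). At 12 h it marked 1 as lower (1.19%, against 5.18%) and 4 as higher (4.76%, against 10.7%), and at 24 h 3 as lower and 3 as higher (3.57% each, against 4.94% and 6.39%). The methods' t-test, unadjusted, found 16, 23, 9 and 16 in either direction, and 9.99%, 14.2%, 11.9% and 11.1% of all genes. The member medians were -0.022, 0.033, 0.030 and -0.011, against -0.013, -0.0038, 0.020 and -0.0091 for all genes. On every array of a time, 12 members lay below 0 and 13 above at 3 h (14.3% and 15.5%, against 12.2% and 7.16% of all genes), 3 and 11 at 6 h (3.57% and 13.1%, against 2.61% and 3.52%), 6 and 13 at 12 h (7.14% and 15.5%, against 10.9% and 14.3%), and 15 and 12 at 24 h (17.9% and 14.3%, against 10.9% and 10.8%). In the single fit of all 31 arrays, 3 members (Cyc1, Ndufa7 and Sdhd) were lower and 13 higher at 6 h (3.57% and 15.5%, against 5.64% and 6.87% of all genes), and Uqcrh was higher at 6 and 12 h. A test for any difference between the 4 times called 0 of 84 members, and 0 also lay under 0.05 before adjustment (3.81% of all genes did).

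Uqcrh had the highest ratio of the members at all 4 times after MgSO4. It measured 0.48, 0.19, 0.28 and 0.13 at 3 h and 0.20 to 0.63 (median 0.35) at 6 h. At 12 h it measured 0.35, 0.85, 0.049 and 0.34 and at 24 h 0.38, 0.47, 0.31 and 0.27. All 19 arrays lay above 0, and no time passed the test, with means of 0.27 ± 0.15 (SD, n = 4, adjusted p = 0.501) at 3 h and 0.36 ± 0.17 (SD, n = 7, adjusted p = 0.181) at 6 h. The opposite held for Cox4i1, the ubiquitous isoform of complex IV subunit 4, which lay below 0 on 18 of 19 arrays, from -0.37 to 0.053 (median -0.17). Atp5o lay below 0 on 18 of those 19 arrays and on 30 of all 31. Since dyes were not swapped, a ratio of one sign in every experiment and a dye bias of the probe cannot be told apart.

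Other members with one sign on every MgSO4 array of a time were near the same size. At 3 h the lowest of them were Ndufa7, Cox5a and Cox5b, at -0.21, -0.20 and -0.18, and below Uqcrh the highest were Uqcr10 and Atp5k, at 0.27 and 0.20. At 6 h the lowest were Cox4i1, Atp5o and Atp5c1, at -0.17, -0.15 and -0.14, and the highest Cox6a1 and Sdhb, at 0.25 and 0.23. At 12 h they were Cox4i2, Cox7b2 and Cyc1, at -0.36, -0.25 and -0.25, and Sdha and Cox6a1, at 0.33 and 0.27. At 24 h they were Ndufa4l2, Ndufa13 and Atp5o, at -0.31, -0.29 and -0.27, and Atp5mpl and Cox7b, at 0.27 and 0.22. None of these passed the test.

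The HI and RV Mg ratios were also set against the MgSO4 ratios of the same time, since a dye bias of a probe would be shared by both. The member median of the difference was -0.11 at 3 h and -0.25 at 12 h for HI, and -0.14 and -0.14 for RV Mg. For HI, 0 members passed at either time (0.114% of all genes were lower at 3 h and 0.00729% at 12 h). On the RV Mg arrays at 3 h, 2 members passed as higher (2.38%, against 3.55% of all genes), Ndufa10 among them by 0.54, and 0 passed at 12 h.

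**Figure D4:**
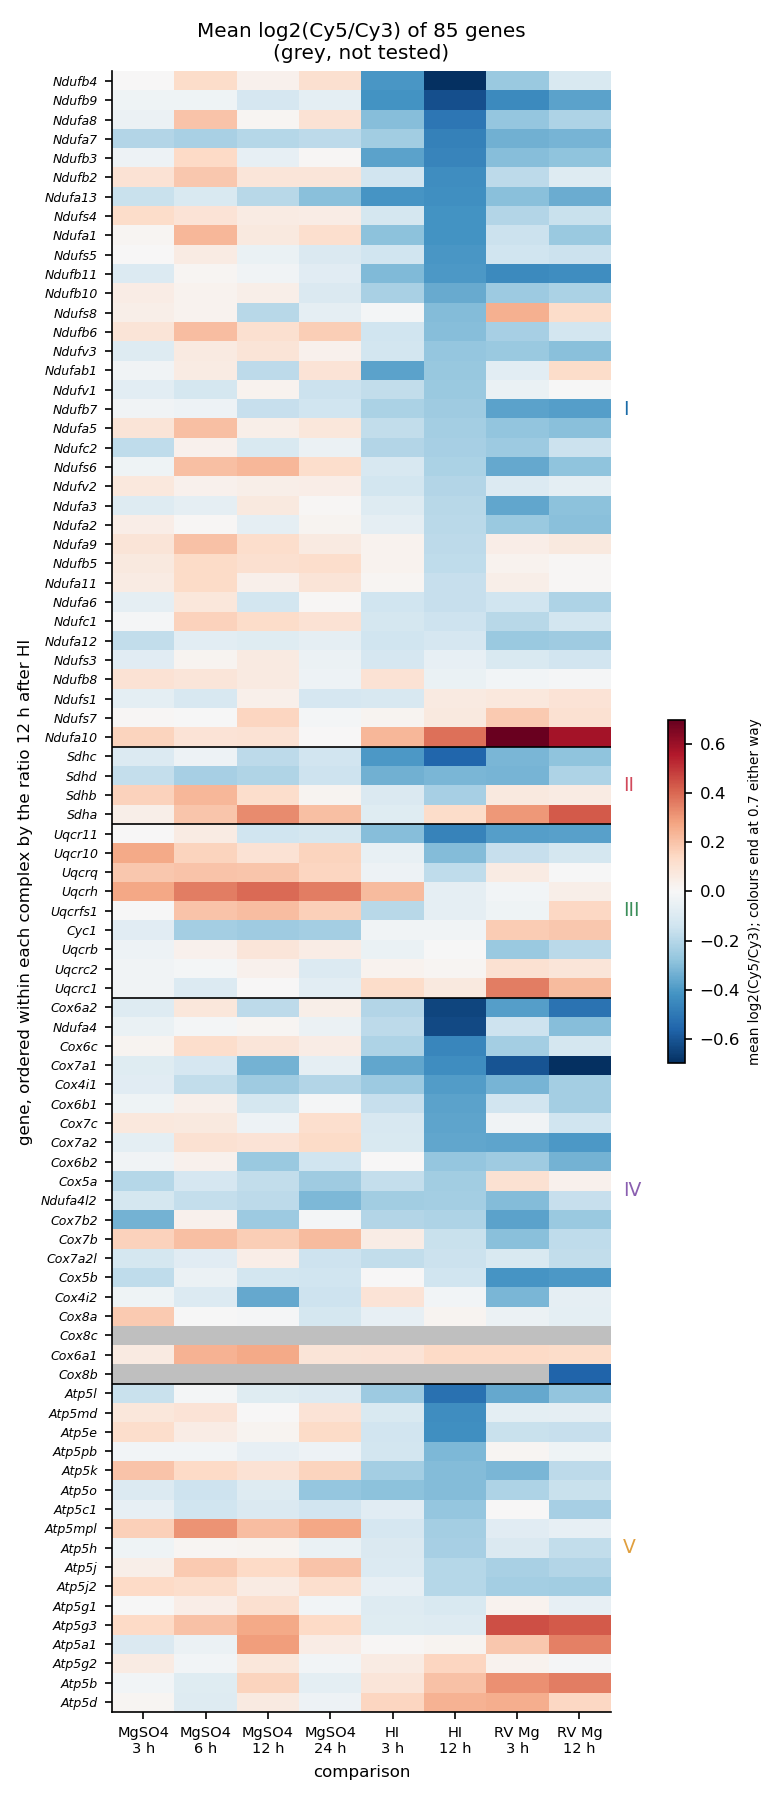
Mean log2 ratio of 85 members (rows, ordered by complex and then by the ratio 12 h after HI) in the 8 comparisons (columns), with untested members in grey. Rows are mostly below 0 in the HI columns, with Ndufa10 above 0 in both, and mixed in the MgSO4 columns.

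Some members are of interest for their role whatever their ratio. The complex II flavoprotein gene Sdha averaged -0.083 at 3 h and 0.13 at 12 h after HI, 0.30 and 0.43 on the RV Mg arrays, and 0.042, 0.19, 0.33 and 0.21 at the 4 times after MgSO4. Its iron-sulphur partner Sdhb averaged -0.10, -0.23, 0.068 and 0.059 in the same order, and 0.16, 0.23, 0.13 and 0.017 after MgSO4. The anchors Sdhc and Sdhd averaged -0.32 and -0.32 on the RV Mg arrays at 3 h, -0.28 and -0.22 at 12 h, and after MgSO4 between -0.18 and -0.033 and between -0.23 and -0.15. Sdhd averaged -0.32 at 12 h after HI. Both anchors lay below 0 on all 12 HI and RV Mg arrays.

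Of the complex III genes named for their role, Cyc1 and Uqcrfs1 averaged below 0 and Uqcrc1 above 0 after HI. Cyc1, cytochrome c1, averaged -0.023 and -0.023 after HI, 0.18 and 0.19 on the RV Mg arrays, and -0.081, -0.24, -0.25 and -0.24 after MgSO4. Uqcrc1, a core protein, averaged 0.13, 0.071, 0.36 and 0.22, and between -0.095 and 0.00095 after MgSO4. Uqcrfs1, the Rieske iron-sulphur protein, averaged -0.20, -0.060, -0.030 and 0.14, and between -0.0046 and 0.21 after MgSO4. None of these passed the test.

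Other work ties several complex IV isoforms to oxygen supply. Cox4i2, the isoform of subunit 4 linked to low oxygen, averaged 0.098 and -0.017 after HI, -0.32 and -0.065 on the RV Mg arrays, and between -0.36 and -0.031 after MgSO4, while Cox4i1 averaged -0.25, -0.39, -0.32 and -0.24. Ndufa4l2, a known target of hypoxia-inducible factor, measured -0.35, -0.100 and -0.28 at 3 h after HI and -0.39, -0.20 and -0.13 at 12 h, below 0 on all 6 arrays, and averaged -0.30 and -0.16 on the RV Mg arrays and between -0.31 and -0.13 after MgSO4. Ndufa4 averaged -0.14 and -0.30 on the RV Mg arrays and between -0.048 and 0.016 after MgSO4. Cox7a2l, which helps join complexes III and IV, averaged -0.17, -0.15, -0.11 and -0.17, and between -0.15 and 0.046 after MgSO4. Neither Cox4i2 nor Ndufa4l2 passed the test in any group. Their probes were dim, with log2 Cy3 signals of 6.74 to 7.88 and 6.01 to 9.06, against 16.2 to 17.9 for Cox4i1.

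Of the electron-entry subunits of complex I, Ndufv1 lay below 0 on average after HI at both times and Ndufs1 above 0 on all 6 RV Mg arrays. Ndufv1, which binds NADH, averaged -0.17 and -0.26 after HI, -0.049 and -0.0045 on the RV Mg arrays, and between -0.15 and 0.025 after MgSO4. Ndufs1, the largest iron-sulphur subunit, averaged -0.11, 0.065, 0.075 and 0.094, and between -0.12 and 0.034 after MgSO4. Neither passed the test in any group.

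Genes that act with the chain were described from lists. Of the assembly factors, which help build the complexes but are not part of them, 9 of 43 tested were lower at 3 h after HI (8.65% of all genes were) and 1 was higher, with a list median of -0.16. The lower ones included Sdhaf2, which adds the flavin to Sdha, at -0.43 ± 0.091 (SD, n = 3, adjusted p = 0.0286), and Cox14, at -0.35 ± 0.091 (SD, n = 3, adjusted p = 0.0384), and the higher one was Cox10, which makes heme for complex IV, at 0.55 ± 0.15 (SD, n = 3, adjusted p = 0.026). At 12 h the list median was -0.29, with 0 genes passing. Cycs, the somatic cytochrome c, averaged -0.22 ± 0.10 (SD, n = 3, adjusted p = 0.0913) at 3 h and -0.22 ± 0.028 (SD, n = 3, adjusted p = 0.267) at 12 h, below 0 on all 6 arrays.

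Of 13 regulators of mitochondrial genes, 2 were lower at 3 h after HI and 1 was higher (8.65% and 6.21% of all genes were). Esrra, a nuclear receptor of energy metabolism, was lower at -0.44 ± 0.023 (SD, n = 3, adjusted p = 0.0233), and so was Tfam, which packs and transcribes mitochondrial DNA, at -0.38 ± 0.088 (SD, n = 3, adjusted p = 0.0332). Ppargc1a, a coactivator of such genes, was higher at 0.30 ± 0.036 (SD, n = 3, adjusted p = 0.0409). At 12 h Esrra averaged -0.47 ± 0.039 (SD, n = 3, adjusted p = 0.0942) and Tfam -0.65 ± 0.19 (SD, n = 3, adjusted p = 0.0804). Of 13 tricarboxylic acid cycle genes, Fh1, fumarase, was lower at 3 h (8.65% of all genes were), at -0.34 ± 0.056 (SD, n = 3, adjusted p = 0.0359), and 0 were higher, with a list median of -0.043.

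Some genes of glycolysis and of the hypoxia response were higher at 3 h. Of 20 glycolysis genes 5 were higher (Hk2, Slc2a1, Slc2a3, Eno1 and Slc16a3), against 6.21% of all genes, and 0 lower. Slc2a1, a glucose transporter, averaged 1.12 ± 0.21 (SD, n = 3, adjusted p = 0.0125) and Hk2, a hexokinase, 0.94 ± 0.16 (SD, n = 3, adjusted p = 0.0125). Of 15 hypoxia response genes 6 were higher (Adm, Vegfa, Ddit4, Hmox1, Ero1a and Hif3a) and 0 lower, and Adm, adrenomedullin, averaged 2.18 ± 0.38 (SD, n = 3, adjusted p = 0.0125). After MgSO4, 0 genes of these lists passed. On the RV Mg arrays at 3 h, Egln1, an oxygen-sensing hydroxylase, was higher in Cy5 at 1.41 ± 0.16 (SD, n = 3, adjusted p = 0.00771), as were Idh3b of the tricarboxylic acid cycle, at 0.54 ± 0.19 (SD, n = 3, adjusted p = 0.0392), and Slc2a3 of glycolysis.

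The makeup of the tissue was looked at through marker genes, since in whole hemisphere RNA fewer cells of a type and less RNA per cell cannot be told apart. All 10 neuronal, 7 astrocyte and 8 oligodendrocyte lineage markers were above background in the HI groups. Of 6 microglia and macrophage markers, 5 lay below 0 at 3 h and 4 at 12 h after HI, with medians of -0.22 and -0.26. P2ry12 was called lower and Itgam higher at 3 h (8.65% and 6.21% of all genes were). Otx2 of the choroid plexus was also called lower then, and Mbp of the oligodendrocyte lineage higher. The summed microglia and macrophage signal gave -0.013 to 0.15 at 3 h and -0.065 to 0.22 at 12 h. Of 6 endothelium and pericyte markers tested, 2 lay above 0 at 3 h and 5 at 12 h, with medians of -0.021 and 0.35 and 0 called. Of 7 skeletal muscle markers, Ckm and Mb were not above background and 5 were tested. At 3 h after HI, Myh8 and Tnni2 were lower and the summed muscle signal gave -0.24 to -0.12, and at 12 h all 5 tested lay below 0 and the sum gave -0.28 to -0.23. The muscle isoforms Cox7a1 and Cox6a2 averaged -0.36 and -0.21 at 3 h and -0.43 and -0.64 at 12 h. At 3 h after HI, 0 neuronal markers were lower and 2 of 10 (Gad1 and Snap25) were higher (8.65% and 6.21% of all genes were), and the summed neuronal signal gave log2 ratios of -0.11 to 0.068 over the 3 arrays. At 12 h it gave -0.21 to 0.26, so it scattered on both sides of 0. The medians over the 10 neuronal markers were 0.12 at 3 h and 0.21 at 12 h, with 7 and 9 of them above 0. The summed oligodendrocyte lineage signal gave 0.071 to 0.18 at 3 h and 0.10 to 0.31 at 12 h, and the summed astrocyte signal -0.19 to -0.073 and -0.26 to -0.0020. A sum follows its brightest genes, and most single astrocyte markers lay above 0. Of the 7, 4 did at 3 h and 6 at 12 h, with medians of 0.11 and 0.24, and Slc1a2 was called higher at 3 h. The summed blood markers gave 0.26 to 1.00 at 12 h and the summed choroid plexus markers 0.43 to 1.12, above 0 on every array. At 3 h these sums gave -0.068 to 0.41 and -0.36 to 0.20, and the part of any of these cell types and tissues in the member ratios was not tested.

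Promoters are shown for the members called in a comparison whose promoter holds a searched motif, and for Ndufb4 and Ndufa10, the lowest and the highest member after HI at 12 h, which hold none. The motifs, searched on both strands, were those of NRF1 (GCGCATGCG), GABPA (CCGGAAGT), YY1 (AAGATGGCG) and ESRRA (TCAAGGTCA), factors known to act on respiratory chain genes. Sequences are from RefSeq (GRCm38.p6), run from 250 bases before to 50 after the start of the gene, and are written in the direction of the gene, with motif matches in capitals (in Uqcr11 first GABPA and then NRF1 on the opposite strand, in Sdhd and Atp5g3 ESRRA on the opposite strand).
Uqcr11, chr10:80406772-80407071, minus strand: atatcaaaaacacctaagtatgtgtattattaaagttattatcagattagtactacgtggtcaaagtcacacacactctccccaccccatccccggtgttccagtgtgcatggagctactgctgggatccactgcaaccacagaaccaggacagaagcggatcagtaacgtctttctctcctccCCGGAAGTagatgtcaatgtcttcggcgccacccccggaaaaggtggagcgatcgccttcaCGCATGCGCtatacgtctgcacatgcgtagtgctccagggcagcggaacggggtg
Sdhd, chr9:50603800-50604099, minus strand: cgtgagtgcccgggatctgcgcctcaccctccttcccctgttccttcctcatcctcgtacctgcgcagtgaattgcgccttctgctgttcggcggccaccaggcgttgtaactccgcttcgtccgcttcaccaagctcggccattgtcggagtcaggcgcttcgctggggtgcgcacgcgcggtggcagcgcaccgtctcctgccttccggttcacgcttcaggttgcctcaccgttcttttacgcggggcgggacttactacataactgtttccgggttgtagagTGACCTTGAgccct
Atp5g3, chr2:73911277-73911576, minus strand: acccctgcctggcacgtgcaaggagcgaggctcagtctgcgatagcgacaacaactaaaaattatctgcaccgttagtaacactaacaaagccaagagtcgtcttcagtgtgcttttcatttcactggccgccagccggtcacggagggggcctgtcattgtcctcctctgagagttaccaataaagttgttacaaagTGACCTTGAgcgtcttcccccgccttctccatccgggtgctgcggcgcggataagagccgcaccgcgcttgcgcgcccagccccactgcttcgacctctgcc
Ndufb4, chr16:37654319-37654618, minus strand: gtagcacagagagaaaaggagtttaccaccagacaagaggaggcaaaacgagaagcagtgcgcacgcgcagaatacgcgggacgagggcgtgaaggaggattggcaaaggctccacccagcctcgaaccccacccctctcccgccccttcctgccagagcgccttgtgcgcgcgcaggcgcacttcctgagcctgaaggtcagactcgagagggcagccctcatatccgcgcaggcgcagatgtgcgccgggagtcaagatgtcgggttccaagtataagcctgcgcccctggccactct
Ndufa10, chr1:92473709-92474008, minus strand: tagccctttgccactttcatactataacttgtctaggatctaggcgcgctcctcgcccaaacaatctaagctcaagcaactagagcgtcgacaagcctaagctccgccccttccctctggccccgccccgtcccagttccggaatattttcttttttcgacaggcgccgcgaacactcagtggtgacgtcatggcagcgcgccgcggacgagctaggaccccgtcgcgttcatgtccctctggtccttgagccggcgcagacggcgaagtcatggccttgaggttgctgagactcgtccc

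A promoter was given for 69 of the 86 members, and Ndufb9 and Sdhc were among those without one. NRF1 letters stood in 8 of the 69 (11.6%, against 1.95% of the promoters of all 27025 genes), YY1 letters in 7 (10.1%, against 1.64%), GABPA letters in 5 (7.25%, against 4.31%) and ESRRA letters in 2 (2.9%, against 0.466%). At 12 h after HI the 8 members with NRF1 letters had a median of -0.23, the 7 with YY1 letters -0.20 and the 47 tested members with none of the 4 motifs -0.27. The 5 with GABPA letters had -0.064 and the 2 with ESRRA letters -0.21. The letters thus did not mark out the members that lay lowest. A match is a description of the letters and not a bound site.

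Over the 31 arrays, the 5 other genes whose ratio correlated most with the member median were Sp3os (r = 0.968), Cops9 (r = 0.940), Rpp21 (r = 0.935), Efcab10 (r = 0.934) and Psmb10 (r = 0.930), of 13888 genes compared. At 12 h after HI they averaged between -0.77 for Efcab10 and -0.36 for Psmb10. The arrays of a slide share a scan and the groups share their treatment, so these correlations describe the arrays and carry no test.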

How the data were processed

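The 31 two-colour Agilent arrays were extracted by the authors with Feature Extraction 10.5.1.1, per the labels. The deposited processed intensities are background-subtracted and dye-normalized within each array, per the file headers. The authors' series table holds log10 ratios of Cy5 over Cy3, equal to the ratio column of the 30 array files that have one. From the deposited processed intensities, log2 ratios were computed, without spots marked as non-uniform or outlying.

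Probes were named through RefSeq accessions (GRCm38.p6): 27427 of 39429 probes (69.6%) matched 1 symbol, and unmatched probes and 930 Rik symbols were left out. A probe entered the test of a group if 2 of 3 of its arrays or more showed it well above background in Cy3 or Cy5, and the brightest probe stood for a gene. The share of probes above background, which sets the precision along with the number of arrays, was 45.2% to 69.7% in Cy3 and 54.4% to 70.2% in Cy5, and 0% were saturated. Up to 4 members on an array had a ratio of exactly 0 and were kept.

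Arrays were grouped by their labels. Groups were tested against 0 with lmFit and eBayes of limma 3.58.1 (R 4.3.3) at a Benjamini-Hochberg adjusted p under 0.05, after a test on simulated data that recovered 76% of changes of 1 on the log2 scale in the HI design at 3 h. Smaller changes were not simulated, and member means at 3 h after HI ran only from -0.42 to 0.23. Per the methods an array holds pools, so p-values measure the spread between pools. Named were members that passed (up to 10 by size), the 3 highest and 3 lowest with the same sign on every array, and 14 members fixed for their role; Atp5if1 carries the reference symbol Atpif1 and is no member by the rule. Counts and medians cover all members, and the values of 1 of them are not reported here. Members, lists and tests were chosen with earlier results of these data known. The replicate numbers paired the Cy3 samples of the HI and RV Mg arrays at 3 h, which share slides (correlations of deviations 0.179, 0.342 and 0.392), and not those of the other groups. Alternatives covered background correction, centring, filters, the choice of probe, single arrays, slides, the shared spread, the methods' t-test and the controls.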

Additional observations from a re-analysis of the deposited data

Results flagged for a closer look

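In 3 of 78 sets of arrays tested for one value far from the rest, an array stood apart, and chance alone gives about 1 in 20. At 3 h after MgSO4, Cox5a, a complex IV subunit, measured -0.2719 on replicate 3, and -0.1827 to -0.1672 on the other arrays. Ndufa4l2 measured -0.5449 on the same array, and 0.0 to 0.0282 on the others. At 6 h after MgSO4, Ndufa4l2 measured 0.1407 on replicate 1, and -0.3064 to -0.1388 on the others.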

How the results depend on the processing

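Counts here are members passing at an adjusted p under 0.05 in either direction. No gene called in the reported values changed direction, while Atp5l, at -0.26 and not called 3 h after HI, was called higher with either loess setting. Of the 14 settings tried for each called gene, Ndufa10 on the RV Mg arrays at 3 h passed in 13 (0.54 to 0.72), while the 12 genes lower at 3 h after HI passed in 5 to 9. Centring each array on its median moved the member median to -0.079 (3 h) and 0.13 (12 h) after MgSO4, to -0.17 (3 h) and -0.16 (12 h) after HI, and to -0.071 on the RV Mg arrays at 12 h. With the methods' t-test, unadjusted, 16, 23, 9 and 16 members passed at 3, 6, 12 and 24 h after MgSO4, 25 and 34 at 3 and 12 h after HI, and 20 and 29 on the RV Mg arrays. After adjustment it passed 0 at 3 h after HI and 0 on the RV Mg arrays at 3 h. With normexp and loess on median signals, 22 and 5 members passed at 3 and 12 h after HI (medians -0.081 and -0.17), 12 and 7 on the RV Mg arrays, 1 at 12 h after MgSO4 and 1 for the change between 3 and 12 h after HI, and the 24 h median after MgSO4 was 0.038. With loess and no background subtraction they were 21 and 6 after HI (medians -0.080 and -0.17), 13 and 5 on the RV Mg arrays, and 2, 1 and 3 at 6, 12 and 24 h after MgSO4, with a 24 h median of 0.046. Without a filter on dim probes, 0 passed at 3 h after HI and 2 on the RV Mg arrays at 3 h, where the median over a gene's probes gave 3. The cause of these differences was not tested.

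One fit over all 31 arrays passed 16 members at 6 h and 1 at 12 h after MgSO4, 6 and 31 at 3 and 12 h after HI, and 20 and 16 on the RV Mg arrays. With slide as a random block, an alternative added after seeing the data, it passed 9 and 1, 5 and 25, and 17 and 12. Slide could not be fitted as a block within the groups of 3 arrays, or at 12 and 24 h after MgSO4, where each slide held 1 array. Set against the MgSO4 arrays of the same time, also added later, 0 passed at 3 h after HI and 2 on the RV Mg arrays at 3 h, and without the slide of replicates 3 and 7 (added later) 1 passed at 6 h after MgSO4. Leaving out 1 array in turn gave 0 to 0 at 3 h and 0 to 10 at 12 h after HI, and 1 to 9 at 3 h and 0 to 1 at 12 h on the RV Mg arrays. For the Cy3 signals, the controls of the MgSO4 arrays alone gave 1 member at 3 h and 57 at 12 h, and Cy5 in place of Cy3 gave 21 at 12 h.

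With the replicate number as a replicate block, 0 members passed for 12 h against 3 h after HI, 0 for the times after MgSO4, and 0 for the Cy3 comparison at 3 h and at 12 h with the controls of the HI arrays, so the block changed no call. Samples of the same number did not deviate together across the HI times (r = -0.27, -0.052 and -0.23) or the MgSO4 times (r = -0.30 to 0.69).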

Other observations

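For 22 members more than 1 probe was tested. Their mean ratios differed in sign between probes for 2 members at 3 h and 3 at 12 h after HI, for 7 and 5 on the RV Mg arrays, and for 7, 8, 16 and 10 at the 4 times after MgSO4. Cox7a2l, whose brightest probe is given above, had probe means from -0.11 to 0.53 on the RV Mg arrays at 3 h, and Cox7c, a small subunit of complex IV, had probe means from -0.44 to -0.11 at 3 h after HI.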
